A study of Mus musculus with 1376 samples.

Results

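Prostanoids are lipid mediators made from arachidonic acid, and the 10 genes described here encode enzymes that make them and receptors that read them. The enzymes are the cyclooxygenases Ptgs1 and Ptgs2, prostacyclin synthase Ptgis and prostaglandin D synthase Ptgds. The receptors are Ptgir for prostacyclin, Tbxa2r for thromboxane, Ptgfr for prostaglandin F, and Ptger2, Ptger3 and Ptger4 for prostaglandin E. The members were taken by name as the synthases and receptors of this family, and all 10 were among the 46517 genes of the table. Their levels were read in single lung cells sorted from 3 mice of the ACTA2GFP:CSPG4dsRED reporter strain, whose name gives green and red reporters for smooth muscle actin and the NG2 proteoglycan. Of the 1376 cells, 47.5% were from male mouse 1 (2 plates), 25.6% from male mouse 2 (1 plate) and 26.96% from female mouse 1 (1 plate), with no treatment named in the labels. Ages are labelled as 8 to 30 weeks, whereas the series text speaks of male mice of 8 to 21 weeks. Tissue is labelled lung, while the extract protocol speaks of heart and a skeletal muscle kit, and the sources used here do not give the gate of the sort. Where 3 values follow each other below, male mouse 1 comes first, male mouse 2 next and female mouse 1 last.

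Arachidonic acid is freed from membranes by phospholipase A2 enzymes, and both cyclooxygenases turn it into prostaglandin H, an unstable intermediate. Terminal synthases then make prostacyclin, prostaglandin E, D or F, or thromboxane from it. In vessels, prostacyclin acting on its receptor relaxes smooth muscle and keeps platelets quiet, while thromboxane acting on its own receptor contracts smooth muscle. In airways, prostaglandin E relaxes muscle largely through the EP2 receptor encoded by Ptger2, and the lung endothelium takes up and breaks down much of the circulating prostaglandin. Ptgs1 is usually described as the constitutive cyclooxygenase and Ptgs2 as the form that stimuli induce.

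Promoters of 4 members whose levels set classes of cells apart below are shown, as the 250 bases before the transcription start in RefSeq, build GRCm38.p6, 5′ to 3′ on the gene's own strand. Capitals mark the GC box, searched as GGGCGG on both strands, which 32.7% of 32851 promoter windows of the same length hold. A TATA box (TATAA, in 22.8% of windows), an E-box (CACGTG, in 6.02%), a cyclic AMP response half-site (TGACG, in 17.8%) and the CArG box of smooth muscle genes (in 1.47%) were also searched on both strands and had no match in these 4 windows. No motif overlapped another in them. Bases outside these windows, such as those past the annotated start, were not searched.
Ptgs1 (chr2:36230176-36230425, plus strand): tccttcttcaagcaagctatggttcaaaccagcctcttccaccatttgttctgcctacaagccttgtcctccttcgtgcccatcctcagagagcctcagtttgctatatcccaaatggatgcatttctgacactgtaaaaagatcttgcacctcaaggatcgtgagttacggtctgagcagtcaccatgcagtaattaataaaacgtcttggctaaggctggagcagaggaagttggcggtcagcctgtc
Ptgs2 (chr1:150099781-150100030, plus strand): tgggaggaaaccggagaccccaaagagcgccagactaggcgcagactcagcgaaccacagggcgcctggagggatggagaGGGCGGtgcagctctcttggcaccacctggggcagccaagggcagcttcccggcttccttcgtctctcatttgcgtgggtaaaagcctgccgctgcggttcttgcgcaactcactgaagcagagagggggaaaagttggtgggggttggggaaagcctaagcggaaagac
Ptgir (chr7:16906240-16906489, plus strand): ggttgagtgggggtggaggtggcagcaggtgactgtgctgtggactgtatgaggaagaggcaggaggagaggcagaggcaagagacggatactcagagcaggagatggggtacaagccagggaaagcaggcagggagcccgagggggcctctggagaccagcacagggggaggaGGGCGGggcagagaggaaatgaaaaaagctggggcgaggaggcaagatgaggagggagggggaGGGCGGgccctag
Ptgfr (chr3:151837529-151837778, minus strand): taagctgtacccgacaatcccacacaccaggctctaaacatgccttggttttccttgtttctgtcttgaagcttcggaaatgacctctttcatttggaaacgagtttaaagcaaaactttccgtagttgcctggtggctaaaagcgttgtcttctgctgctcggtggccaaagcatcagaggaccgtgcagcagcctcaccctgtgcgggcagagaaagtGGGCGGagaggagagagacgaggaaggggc
The windows of the paired cyclooxygenases thus differ in these letters, with no GC box in that of Ptgs1 and 1 in that of Ptgs2. Those of the prostacyclin and prostaglandin F receptors hold 2 and 1. The match is a description of letters and says nothing of binding. RefSeq promoters were matched for 9 of the 10 members, and Ptgis was the one not matched. In GENCODE M21, also on GRCm38, the synthase genes are Ptgs1 (ENSMUSG00000047250) at chr2:36230426-36252272, Ptgs2 (ENSMUSG00000032487) at chr1:150100031-150108227 and Ptgis (ENSMUSG00000017969) at chr2:167191805-167240604. The receptor genes are Ptgir (ENSMUSG00000043017) at chr7:16906490-16910905, Tbxa2r (ENSMUSG00000034881) at chr10:81328731-81335172, Ptgfr (ENSMUSG00000028036) at chr3:151796502-151837630 and Ptger2 (ENSMUSG00000037759) at chr14:44988195-45003820. Counts were taken per gene, and exons, introns and UTRs were not told apart.

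Cells were grouped into classes by clustering that used no gene of the prostanoid pathway, and the classes took names ending in -like from marker genes. Of these, 6 classes had at least 10 cells in each mouse and could be compared over mice: airway smooth muscle cell (SMC)-like (6.03% of all cells), pericyte-like (8.79%), alveolar myofibroblast-like (7.49%), adventitial fibroblast-like (5.23%), alveolar fibroblast-like (11.8%) and vascular SMC-like (32.5%). A further 18.3% of cells took no name and were left out of the comparisons, among them a cluster of 85, 31 and 31 cells in the 3 mice. Statements on the highest or lowest class below do not cover these cells. Levels are given as CPM, which is counts scaled to a library total of 1e6. The alveolar fibroblast list, which also named that class, summed to between 6059 and 7549 CPM in the alveolar fibroblast-like class. Among the 10 leading genes of that class, 1 was from this list (Slc36a2) and 1 from the list of mesothelial markers (Upk3b). Airway SMC markers summed to between 6219 and 7679 CPM in the alveolar myofibroblast-like class, above the 4385 to 5783 CPM of the airway SMC-like class itself, so that list did not separate these 2 classes. Cardiomyocyte markers reached 820 CPM in airway SMC-like cells of 1 mouse and at most 91.5 CPM in the other 5 classes. Each of the 18 class-by-mouse sums held between 2305161 and 73946020 counts, and cells held between 50835 and 1074103 with a median of 230688. Levels below are CPM of these sums, and log2 fold changes with their SE come from edgeR's quasi-likelihood test with the mouse as a block, adjusted by Benjamini-Hochberg over 16284 genes. A gene was called at an adjusted p under 0.05. Of the members, 9 passed the filter on low counts, with Ptgds left out. As the reads carry no molecular identifiers, intervals below cover counting error only.

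The members differed between the mesenchymal classes. Prostacyclin synthase was abundant in every class but the pericyte-like one, Ptgs1 was found in fibroblast, myofibroblast and airway muscle classes and hardly in vascular muscle, and the receptors peaked in different classes. Over all 6 classes, 6 of the 9 members tested differed (Ptgs1, Ptgs2, Ptgis, Ptgir, Ptger2 and Ptgfr), beside 12.3% of all genes tested. Ptgis (edgeR adjusted p = 2.55e-06) and Ptgfr (1.71e-05) were called also without any one mouse. Ptgs1 and Ptger2 were lost without male mouse 1 or female mouse 1, Ptgs2 without male mouse 1 (0.0918), and Ptgir without male mouse 2 (0.0689) or female mouse 1 (0.0883).

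**Figure D1:**
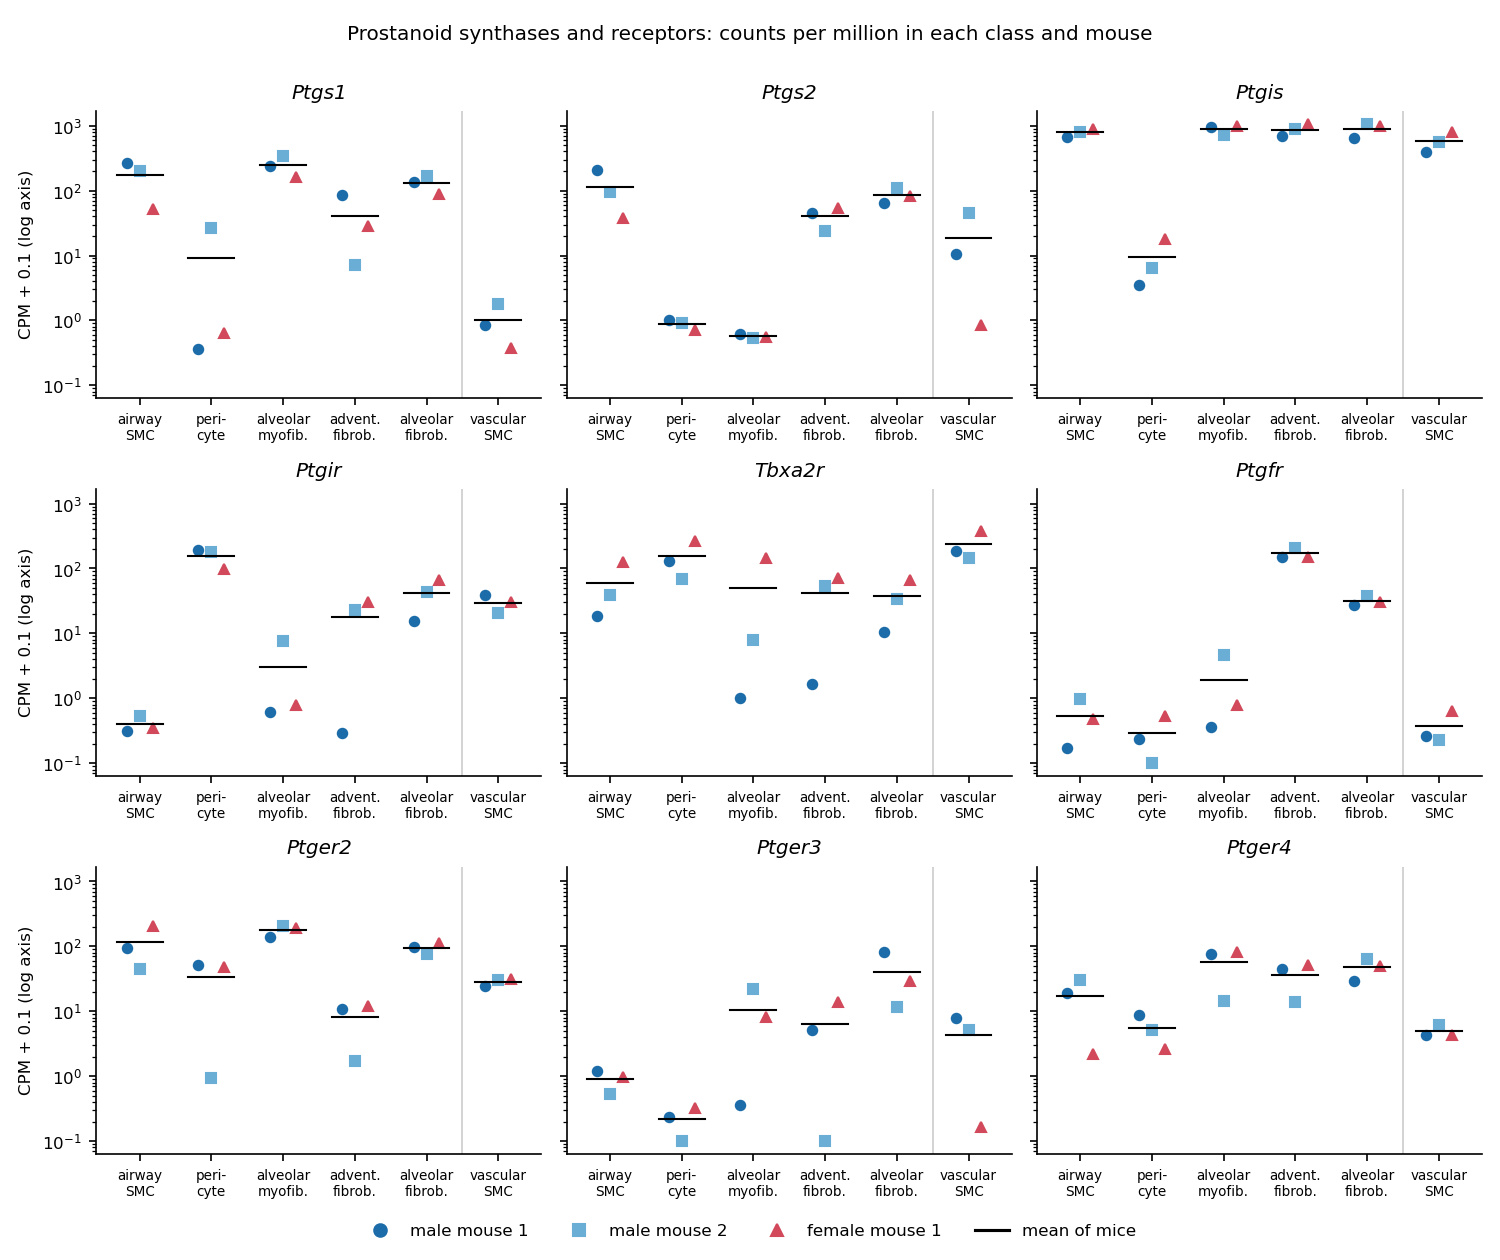
Level of 9 members in each class and mouse, as CPM + 0.1 on a log axis, with symbols for the mice and a bar for their mean, and the vascular SMC-like class to the right of the line. Ptgis lies between 388.6 and 1051 CPM in 5 classes and at or below 18 CPM in pericyte-like cells, and Ptgs1 is under 2 CPM in vascular SMC-like cells of each mouse.

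At the level of classes, both cyclooxygenases were read in airway SMC-like cells and in the 2 fibroblast classes, and Ptgs1 almost alone in the alveolar myofibroblast-like class. Ptgs1 had 235.3, 338.7 and 159.6 CPM in alveolar myofibroblast-like cells. In airway SMC-like cells it had 268.2, 199.99 and 52.1 CPM, and in alveolar fibroblast-like cells 135.4, 167.03 and 89.7 CPM. In vascular SMC-like cells it had 0.744, 1.71 and 0.27 CPM. No sum of the first 3 classes overlapped with those of vascular muscle, and their own ranges overlapped with each other. Adventitial fibroblast-like cells lay between, with 86.7, 6.92 and 28.4 CPM, and pericyte-like cells had 0.267, 26.5 and 0.547 CPM, where 1 cell of male mouse 2 held 98.4% of that sum.

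Against vascular SMC-like cells, Ptgs1 was higher by 7.69 ± 1.40 log2 units in airway SMC-like cells (SE, edgeR adjusted p = 0.00897), by 8.38 ± 1.44 in alveolar myofibroblast-like cells (0.00324) and by 7.50 ± 1.39 in alveolar fibroblast-like cells (0.00394), in 3 of 3 mice each time. Without male mouse 1 the adjusted p was 0.126, 0.0644 and 0.054 in that order of classes, and without female mouse 1 it was 0.2, 0.0991 and 0.113, so each of these calls needed both mice. Detection per cell showed the same split. A Ptgs1 count was found in 55.6%, 54.5% and 48.1% of airway SMC-like cells, and in 6.12%, 5.84% and 8.33% of vascular SMC-like cells. Airway cells with a count held a median of 499.01, 359.1 and 20.7 CPM, against 4.41, 8.56 and 3.65 CPM in vascular cells with one. After thinning every cell to 50000 counts, the shares were 51.1%, 54.5% and 44.4% in airway SMC-like cells, compared with 2.04% and 2.60% in vascular SMC-like cells of the male mice and 0 of 48 such cells in female mouse 1, with an exact 95% upper limit of 7.40%. The annotated gene Gm43621 overlaps Ptgs1 on the other strand, and the sources used here do not say whether the counting used strand, so reads of the 2 cannot be told apart.

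Ptgs2, the inducible isoform, was nearly absent from the alveolar myofibroblast-like class, the one with the highest mean of Ptgs1. It had 0.526, 0.436 and 0.456 CPM there, which was 4 counts in each mouse, against 63.98, 108.3 and 82.3 CPM in alveolar fibroblast-like cells and 10.5, 44.6 and 0.743 CPM in vascular SMC-like cells of the same mice. The myofibroblast sums lay below all other sums of the 6 classes, and female mouse 1 had almost as little in vascular muscle. Ptgs2 was thus lower in alveolar myofibroblast-like than in alveolar fibroblast-like cells by a log2 fold change of -7.45 ± 1.25 (SE, edgeR adjusted p = 0.0046, 3 of 3 mice), and lower than in vascular SMC-like cells by -4.94 ± 1.17 (0.0286, 3 of 3 mice). On the plates of male mouse 1 taken apart, vascular SMC-like cells had 19.4 and 1.73 CPM. The difference from alveolar fibroblast-like cells was not called without male mouse 1 (0.154) or male mouse 2 (0.0507), and that from vascular SMC-like cells without male mouse 1 (0.278) or male mouse 2 (0.377).

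Few cells carried the Ptgs2 counts where it was high. In airway SMC-like cells it averaged 114.3 ± 87.3 CPM, against 18.6 ± 23.03 CPM in vascular SMC-like cells (SD, n = 3 each), a difference of 2.80 ± 1.04 log2 units that was not called (edgeR adjusted p = 0.277). Only 5 of 45, 3 of 11 and 2 of 27 airway cells had a count, and the highest cell of each mouse held 72.3%, 56.2% and 99.3% of it. In alveolar fibroblast-like cells it was found in 29.3%, 29.7% and 35% of cells. Ptgs2 is known as an immediate early gene, and 27 other immediate early and heat shock genes were summed beside it. They came to between 17478 and 23320 CPM in alveolar myofibroblast-like cells. Alveolar fibroblast-like cells had 17657 to 21233 CPM and vascular SMC-like cells 15161 to 21076 CPM, and these ranges overlapped. Against vascular SMC-like cells, 5 of the 27 genes were called higher in airway SMC-like cells, 3 higher in alveolar fibroblast-like, 3 higher in alveolar myofibroblast-like and 3 lower in pericyte-like cells. The shares of all genes called in the same direction were 1.03%, 3.55%, 1.91% and 1.54%. The sum was highest in airway SMC-like cells, at 30747 to 37164 CPM, and lowest in pericyte-like cells, at 4532 to 14565 CPM, where Ptgs2 had 0.602 to 0.933 CPM. The part of these genes in the Ptgs2 level of any class was not tested. Per length, Ptgs1 and Ptgs2 averaged 44.7 and 24.95 CPM per kb in airway SMC-like cells, 33.6 and 18.5 in alveolar fibroblast-like cells, and 0.234 and 4.07 in vascular SMC-like cells.

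Prostacyclin synthase, the enzyme that makes prostacyclin, was the most abundant member per length in each of the 6 classes except the pericyte-like one. Ptgis had 3.47, 6.21 and 18 CPM in pericyte-like cells, against 388.6, 556.4 and 793 CPM in vascular SMC-like cells. The ranges of the 2 classes lay far apart. Ptgis was lower in pericyte-like cells by a log2 fold change of -6.09 ± 0.43 (SE, edgeR adjusted p = 5.27e-06, 3 of 3 mice), and this was called in each of 12 alternatives, with adjusted p between 1.25e-45 and 0.0091 and log2 fold changes between -6.67 and -5.72. It was the 1 member called between these classes, beside 3.15% of all genes tested (1.62% higher and 1.54% lower). In the other 4 classes Ptgis averaged between 786 ± 106.6 CPM (airway SMC-like) and 899 ± 220.1 CPM (alveolar fibroblast-like), against 579.3 ± 203.2 CPM in vascular SMC-like cells (SD, n = 3 each), with ranges that overlapped. The adventitial class was not tested against vascular muscle, and the other 3 had no call. Annotated genes 1110018N20Rik and Gm14291 overlap Ptgis on the other strand.

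Most pericyte-like cells still had a few Ptgis reads. A count was found in 75%, 58.3% and 91.8% of them, at a median of 3.66, 10.2 and 14.2 CPM per such cell, against 84.5%, 91.6% and 100% of vascular SMC-like cells at 337.3, 479.9 and 631.6 CPM. The share of cells with a count therefore hides most of the difference in level. Low counts in many cells were not particular to Ptgis. The transporter gene Slco2a1, high in endothelial-like cells as given below, was found in 8.33% to 57.6% of pericyte-like cells by mouse, at 0.829 to 4.87 CPM. The source of such low counts was not tested. Ptgds, the synthase of prostaglandin D, had 27 counts in the whole table, 26 of them in 1 cell of an unnamed cluster, and 0 counts in each of the 6 classes.

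**Figure D2:**
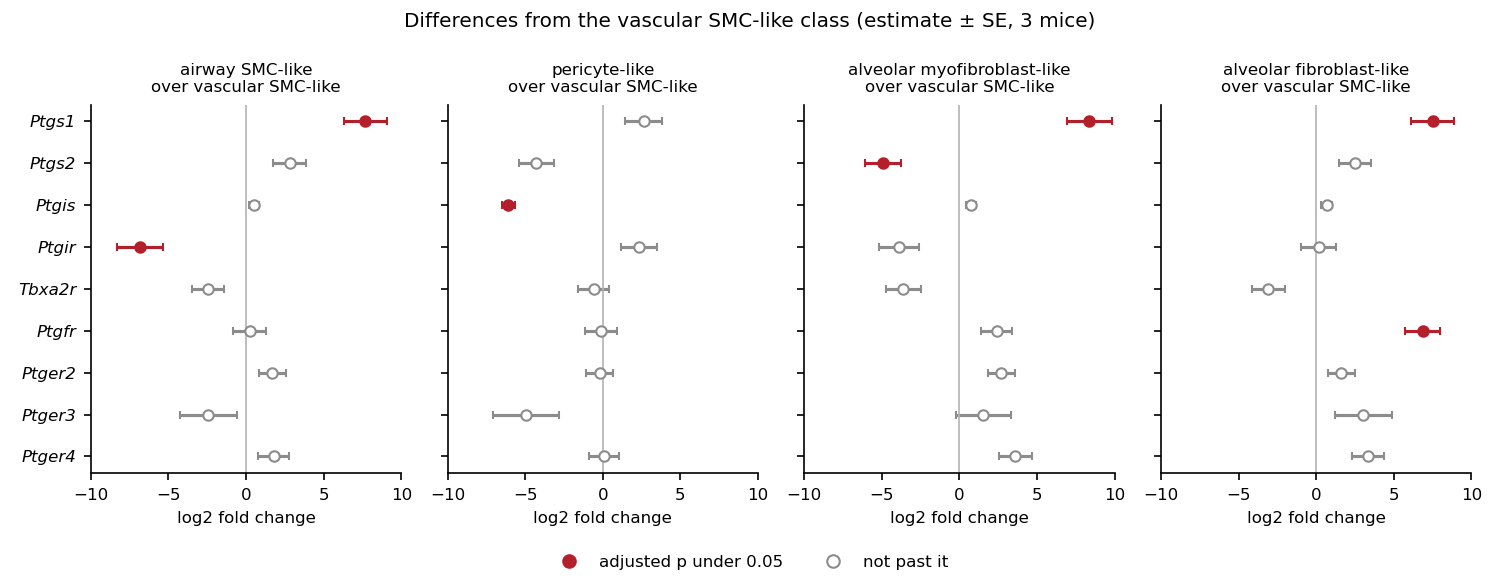
Log2 fold change of 9 members in 4 classes over the vascular SMC-like class, as estimate ± SE over 3 mice, with filled red points where the edgeR adjusted p was under 0.05. Ptgs1 stands at 7.50 to 8.38 in airway SMC-like, alveolar myofibroblast-like and alveolar fibroblast-like cells, and Ptgis at -6.09 in pericyte-like cells.

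Ptgis works on the product of a cyclooxygenase, and the share of its cells that also had a cyclooxygenase count differed between classes. At least 84.5% of cells of each mouse had a Ptgis count in the classes other than the pericyte-like one. There, these shares largely restate how often Ptgs1 or Ptgs2 was found in a class. In airway SMC-like cells, Ptgs1 was found in 55.8%, 60% and 48.1% of cells with a Ptgis count. Of all airway SMC-like cells, it was found in 55.6%, 54.5% and 48.1%. Among cells with a Ptgis count, a count of Ptgs1 or Ptgs2 was found in 61.25% of airway SMC-like cells (49 of 80 cells, exact 95% interval 49.7% to 71.9%), 67.3% of alveolar fibroblast-like cells (59.4% to 74.5%), 49.5% of alveolar myofibroblast-like cells (39.4% to 59.6%) and 40.8% of adventitial fibroblast-like cells (29.3% to 53.2%). In vascular SMC-like cells it was 13.6% (10.4% to 17.4%). By mouse, the shares were 62.8%, 80% and 51.9% in airway SMC-like cells, compared with 12.6%, 14.2% and 16.7% in vascular SMC-like cells. In pericyte-like cells, where Ptgis itself was low, it was 22.3% (14.7% to 31.6%). The ranges over mice did not overlap between vascular muscle and the 4 classes named first. Thinned to 50000 counts a cell, the pooled shares were 57.1%, 53.9%, 32.98% and 25.8% in those 4 classes. They were 7.84% in pericyte-like cells (2.18% to 18.9%) and 6.92% in vascular SMC-like cells (4.48% to 10.1%). Most of the pericyte-like cells behind the thinned share came from female mouse 1. The intervals here pool the cells of all mice and cover counting error only. Their overlap or gap between classes therefore says nothing of the spread over mice. These shares are a description without a test, and they show RNA in a cell and not enzyme.

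**Figure D3:**
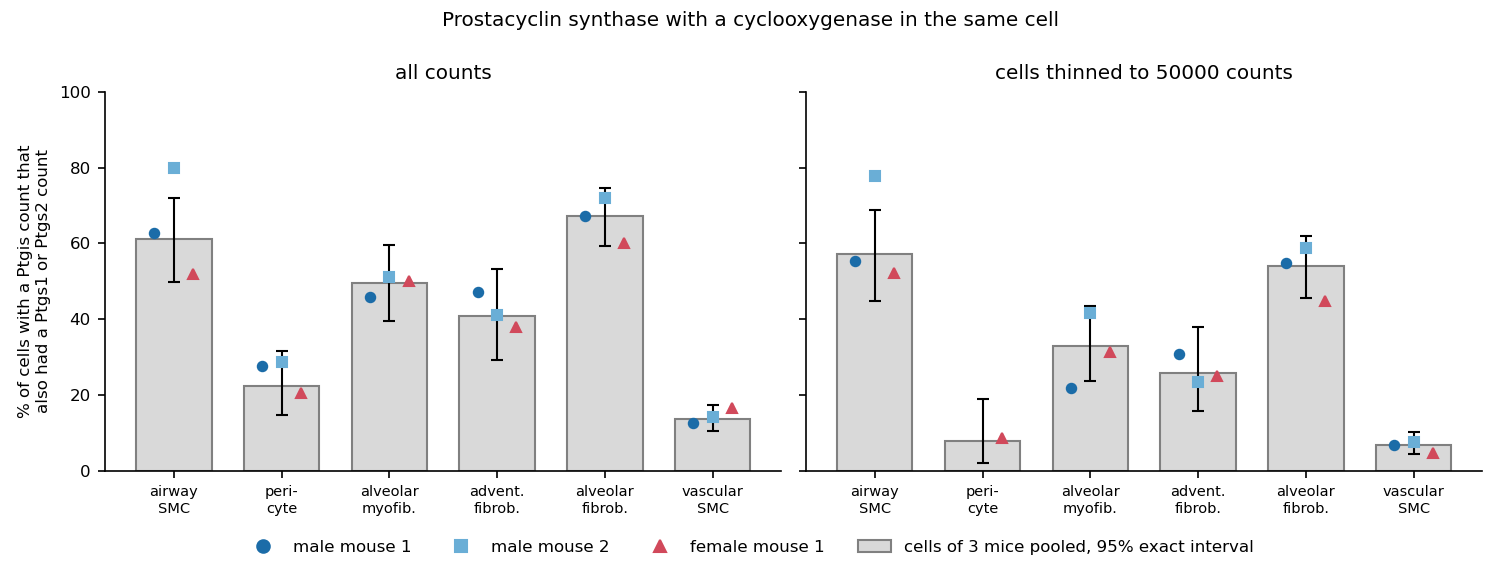
Share of cells with a Ptgis count that also had a Ptgs1 or Ptgs2 count, in percent, with all counts on the left and each cell thinned to 50000 counts on the right. Bars pool the cells of 3 mice with an exact 95% interval, symbols give each mouse (mice with few such cells have none), and vascular SMC-like cells stand at 13.6% and 6.92%.

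Among the other enzymes of the pathway, Pla2g4a and Ptges were called between classes. Pla2g4a, the cytosolic phospholipase A2 that frees arachidonic acid, had 0.132, 0.436 and 1.14 CPM in alveolar myofibroblast-like cells, against 29.1, 66.8 and 30.3 CPM in vascular SMC-like cells. It was lower there (-6.51 ± 1.15 log2 units, SE, edgeR adjusted p = 0.00402), in airway SMC-like cells (-5.58 ± 1.11, 0.0158) and in pericyte-like cells (-4.53 ± 1.05, 0.029) than in vascular SMC-like cells, and lower in alveolar myofibroblast-like than in alveolar fibroblast-like cells (-6.05 ± 1.13, 0.00981). Apart from the first, which was kept without female mouse 1 (0.0457), none of these was called with any mouse left out. Its highest sums, 102.8, 118.4 and 71.1 CPM, were in adventitial fibroblast-like cells. Ptges, the inducible prostaglandin E synthase, had 212.1, 325.7 and 531.7 CPM in alveolar fibroblast-like cells, against 0.798, 7.84 and 9.05 CPM in vascular SMC-like cells, and was higher there by 5.94 ± 1.40 log2 units (edgeR adjusted p = 0.0185). That call was lost without male mouse 2 (0.188) or female mouse 1 (0.136). No other gene of the 4 for arachidonate release that were tested, or of the 8 further synthases, was called in these comparisons.

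The receptors differed in the class with their highest level. Ptgir, the prostacyclin receptor, which raises cyclic AMP, had 193.7, 181.9 and 97.6 CPM in pericyte-like cells, against 38.6, 20.4 and 30.5 CPM in vascular SMC-like cells. Every pericyte sum lay above every vascular one, while the difference of 2.34 ± 1.14 log2 units was not called (SE, edgeR adjusted p = 0.352, 3 of 3 mice). Male mouse 2 had only 12 pericyte-like cells. The 9 of them in 1 of the 2 pericyte-like clusters described below had 24.8 CPM, so its sum rested mainly on the few others. The pericyte-like class thus had the highest prostacyclin receptor level and the lowest prostacyclin synthase level of the 6. Alveolar fibroblast-like cells followed with 15.4, 42.6 and 65.9 CPM, overlapping vascular muscle.

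Airway SMC-like cells had almost no Ptgir, with 0.211, 0.434 and 0.251 CPM, which was 3, 1 and 2 counts. It was lower there than in vascular SMC-like cells by a log2 fold change of -6.85 ± 1.47 (SE, edgeR adjusted p = 0.0246, 3 of 3 mice), a size that rests on those 6 counts. The adjusted p was 0.104, 0.2 and 0.303 with male mouse 1, then male mouse 2, then female mouse 1 left out. Together with Ptgs1, this made 2 members called between airway and vascular SMC-like cells, beside 1.85% of all genes tested (1.03% higher and 0.823% lower). The log2 fold changes of the 9 members between them had a median of 0.51, against -0.20 for all genes tested.

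Tbxa2r, the thromboxane receptor that contracts vascular muscle, was highest in vascular SMC-like cells. Pericyte-like cells had 132.3, 69.2 and 265.7 CPM and airway SMC-like cells 18.4, 38.6 and 124.02 CPM, against 187.5, 143.3 and 374.3 CPM in vascular SMC-like cells. Neighbours in the order of classes overlapped throughout, and on 1 plate of male mouse 1 pericyte-like cells stood above vascular SMC-like cells (187.7 against 150.5 CPM). The lower level in airway SMC-like cells (-2.48 ± 1.03 log2 units, SE, edgeR adjusted p = 0.361) and in alveolar myofibroblast-like cells (-3.61 ± 1.13, 0.112) was seen in 3 of 3 mice and not called. Female mouse 1 had the highest Tbxa2r level of the 3 mice in all 6 classes, for example 142.6 CPM in alveolar myofibroblast-like cells beside 0.921 and 7.85 CPM in the male mice. A Tbxa2r count was found in at least 55% of its cells in each class, at a median under 18 CPM in those cells outside vascular muscle. With 1 female mouse on a plate of its own, sex, mouse and plate cannot be told apart. Platelets also carry this receptor, and the 4 platelet markers summed to between 3.94 and 6.55 CPM in vascular SMC-like cells.

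Ptgfr, the prostaglandin F receptor, which signals through calcium, was highest in the fibroblast classes. It had 152.8, 206.5 and 150.9 CPM in adventitial fibroblast-like cells and 26.99, 37.6 and 29.9 CPM in alveolar fibroblast-like cells. The other classes lay at or below 4.58 CPM, with 0.162, 0.128 and 0.54 CPM in vascular SMC-like cells. It was higher in alveolar fibroblast-like than in vascular SMC-like cells by 6.86 ± 1.11 log2 units (SE, edgeR adjusted p = 0.00141, 3 of 3 mice), and lower in alveolar myofibroblast-like than in alveolar fibroblast-like cells (-4.47 ± 1.01, 0.0335, 3 of 3 mice). Without male mouse 1 the adjusted p was 0.0523 and 0.386, and without female mouse 1 it was 0.0375 and 0.345. The step between the 2 fibroblast classes, added after the levels were seen, was 2.54 ± 0.90 log2 units and not called (adjusted p = 0.453, 3 of 3 mice). On the plates of male mouse 1 taken apart, Ptgfr had 292.2 and 3.22 CPM in adventitial fibroblast-like cells (9 and 8 cells), against 20.3 and 32.3 CPM in alveolar fibroblast-like cells, so the direction turned on the second plate. A Ptgfr count was found in 41.2%, 33.3% and 59.5% of adventitial fibroblast-like cells, against 17.2%, 20.3% and 32.5% of alveolar fibroblast-like cells. Gm43618 overlaps Ptgfr on the other strand, as Gm49364 and Gm17173 do Ptger2, and Ttc33 and Gm15937 do Ptger4.

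Between alveolar fibroblast-like and vascular SMC-like cells, the members called were Ptgs1 and Ptgfr, both higher, beside 5.9% of all genes tested (3.55% higher and 2.35% lower). Between alveolar myofibroblast-like and vascular SMC-like cells they were Ptgs1 (higher) and Ptgs2 (lower), beside 3.76% (1.91% and 1.85%), and between alveolar myofibroblast-like and alveolar fibroblast-like cells Ptgs2 and Ptgfr (both lower), beside 2.09% (0.792% and 1.3%). Between adventitial and alveolar fibroblast-like cells 0 of 9 members were called by edgeR, beside 0.295% of all genes tested (0.129% higher and 0.166% lower). At an unadjusted p under 0.05 in edgeR there were 2 of the 9 members, beside 1222 of the 16284 genes tested. DESeq2 called 2 members there, and also a larger share of all genes than edgeR, which is given at the end of the report.

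The prostaglandin E receptors were spread more widely. Ptger2, the EP2 receptor that relaxes airway muscle, had 137.04, 204.6 and 190.1 CPM in alveolar myofibroblast-like cells and 94.9, 45.1 and 208.3 CPM in airway SMC-like cells, against 24.7, 30.0 and 31.1 CPM in vascular SMC-like cells. Both classes lay above vascular muscle in each mouse, and neither difference was called (2.69 ± 0.88 log2 units, SE, edgeR adjusted p = 0.128, and 1.69 ± 0.86, 0.519). Ptger2 was called for any difference among the classes (adjusted p = 0.0224), though not without male mouse 1 (0.187) or female mouse 1 (0.259). Its lowest level was in adventitial fibroblast-like cells, at 10.7, 1.62 and 11.9 CPM, against 99.04, 75.1 and 113.8 CPM in alveolar fibroblast-like cells (-3.73 ± 0.93, adjusted p = 0.159).

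Ptger4, the EP4 receptor, which also raises cyclic AMP, averaged 57.5 ± 37.8 CPM in alveolar myofibroblast-like, 47.2 ± 17.02 in alveolar fibroblast-like, 36.2 ± 19.9 in adventitial fibroblast-like and 17.2 ± 14.4 in airway SMC-like cells, against 4.83 ± 1.08 CPM in vascular SMC-like cells (SD, n = 3 each). The first 2 lay above vascular muscle in 3 of 3 mice and were not called (edgeR adjusted p = 0.0856 and 0.0807). Macrophage-like cells of male mouse 1 had 216.1 CPM of Ptger4, and the 9 macrophage markers, at 17583 CPM in them, summed to between 7.09 and 96.01 CPM in the alveolar classes. Ptger3, the EP3 receptor, which lowers cyclic AMP, was low. It had 82.2, 11.4 and 29.2 CPM in alveolar fibroblast-like cells and at most 22.4 CPM in any other class, and was not called in any comparison.

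The vascular SMC-like and pericyte-like classes each joined 2 clusters, and the receptors differed between these in level. This was chosen for display after the values were seen and carries no test. Vascular cluster 0 (20.7% of all cells, led by Stac and P2rx1) had 34.7, 62.03 and 40.3 CPM of Ptger2, while cluster 1 (11.8%, with Efhd1, Dsp and Sfrp2 among its leading genes) had 0.187, 0.166 and 1.43 CPM. Ptgis ran the other way, at 282.4, 325.5 and 589.6 CPM in cluster 0 and 648.98, 772 and 1449 CPM in cluster 1. Tbxa2r had 193.5, 146.6 and 372.5 CPM in cluster 0 and 172.6, 140.2 and 379.9 CPM in cluster 1, almost equal in each mouse. Among pericyte-like cells, cluster 7 (73 cells, led by Adora1 and Bbox1) had 178.2 and 368.7 CPM of Tbxa2r in male mouse 1 and female mouse 1, and 69.8 and 68.6 CPM of Ptger2. Cluster 11 (48 cells, with Adcy8 and Clstn2 among its leading genes) had 0.515 and 39.5 CPM of Tbxa2r and 1.03 and 1.22 CPM of Ptger2 in these mice. Male mouse 1 had 18 cells in cluster 7 and 6 in cluster 11, with a Ptger2 count in 22.2% and 33.3% of them. In female mouse 1 these shares were 36.5% and 18.2%. On the plates of male mouse 1 taken apart, pericyte-like cells had 126.6 and 0.675 CPM of Ptger2, so its level in cluster 7 rested on few cells. Ptgir was found in both clusters, and Ptgis was low in both, at or under 19.6 CPM. Smooth muscle markers stood higher in cluster 7 than in cluster 11, with a mean scaled score of 0.213 and -0.653.

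**Figure D4:**
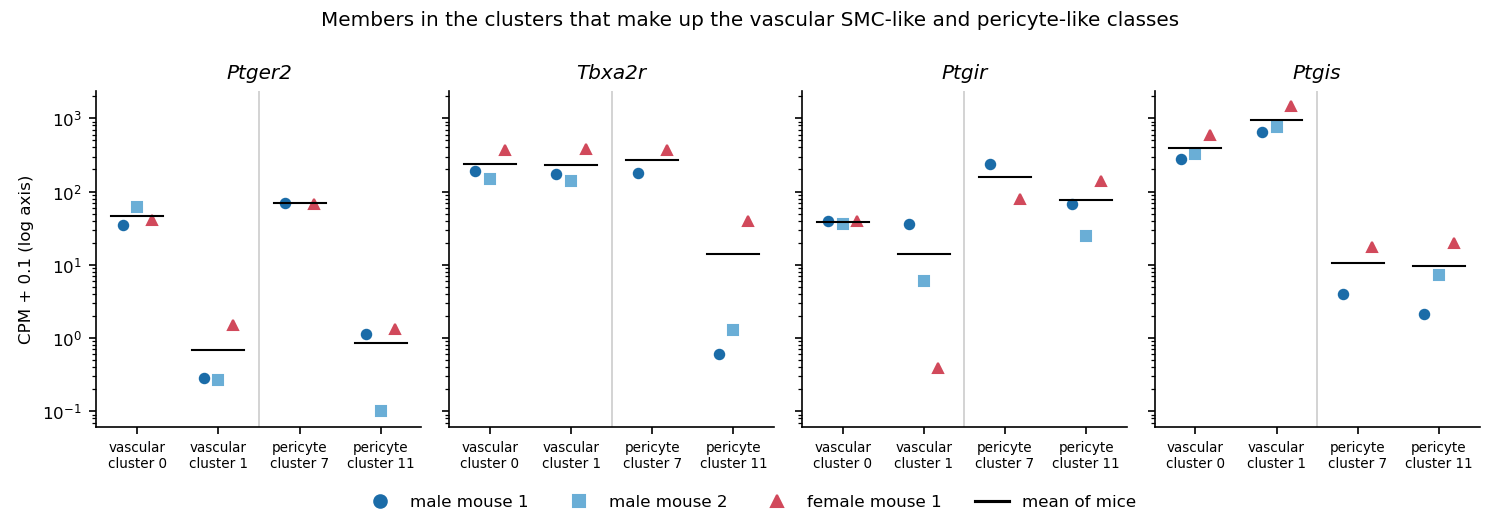
Level of 4 members, as CPM + 0.1 on a log axis, in the clusters that make up the vascular SMC-like and pericyte-like classes, with symbols for the mice (male mouse 2 had too few cells in cluster 7). Ptger2 stands higher in cluster 0 than in cluster 1, while Tbxa2r is almost equal in both vascular clusters. In male mouse 1 and female mouse 1 Ptger2 also stands higher in cluster 7 than in cluster 11, where male mouse 1 had 18 and 6 cells.

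Of the transport and breakdown genes, Hpgd was called between classes. Hpgd, the dehydrogenase that inactivates prostaglandins, had 359.4, 152.1 and 114.2 CPM in alveolar myofibroblast-like cells and 84.3, 147.1 and 56.7 CPM in airway SMC-like cells, against 5.02, 4.15 and 1.89 CPM in vascular SMC-like cells. It was higher in alveolar myofibroblast-like (5.88 ± 1.01 log2 units, SE, edgeR adjusted p = 0.00332) and airway SMC-like cells (4.73 ± 0.96, 0.0178) than in vascular SMC-like cells, and higher in alveolar myofibroblast-like than in alveolar fibroblast-like cells (3.83 ± 0.92, 0.0448). The first was kept without male mouse 1 (0.0285), and the others were lost with any mouse left out. None of the other 5 transport and breakdown genes and none of the 3 other receptors was called. Outside the 6 classes, endothelial-like cells of female mouse 1 (65 of 70 cells) had 1265 CPM of Hpgd and 2130 CPM of the prostaglandin transporter Slco2a1. Macrophage-like cells of male mouse 1 (59 of 66 cells) had 500.4 CPM of Hpgds, the haematopoietic prostaglandin D synthase, 353.9 CPM of the thromboxane synthase Tbxas1 and 693 CPM of the secreted phospholipase Pla2g2d. In the 6 classes Hpgds and Tbxas1 had at most 2.25 CPM, whereas Tbxa2r had 0.863 CPM in those macrophage-like cells.

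**Figure D5:**
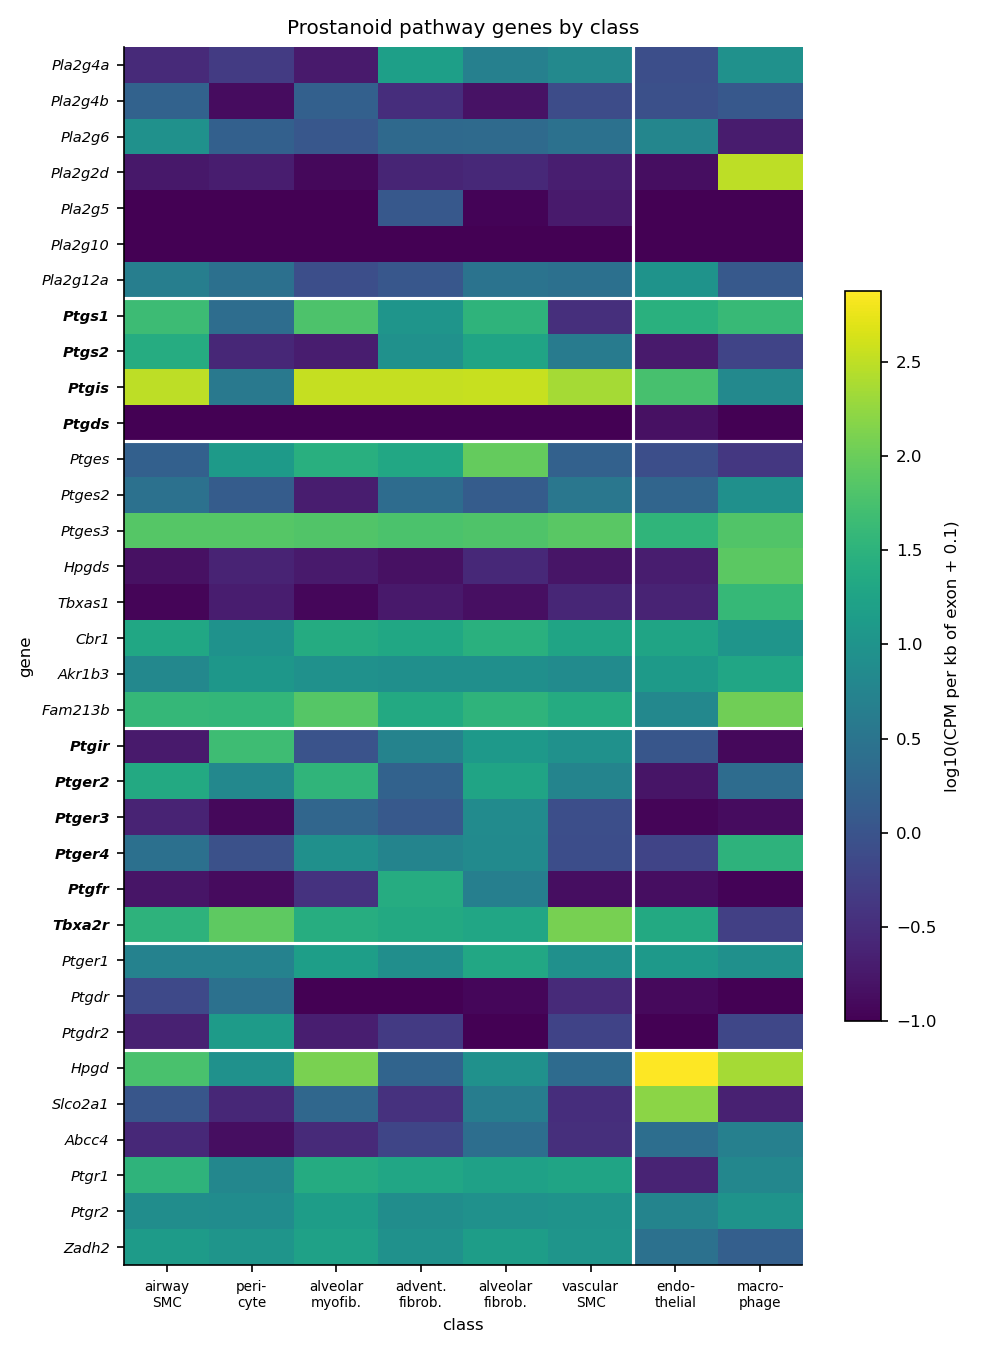
Level of 34 prostanoid pathway genes (members in bold) as log10 of CPM per kb of exon + 0.1, averaged over 3 mice in 6 classes, with endothelial-like cells of female mouse 1 and macrophage-like cells of male mouse 1 to the right of the line. Rows run through arachidonate release, synthases, receptors, and transport and breakdown. Ptgis is the brightest member row outside pericyte-like and macrophage-like cells.

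Other genes with patterns like those of the members were found by Pearson's r of log2(CPM + 1) over the 18 sums, which share mice, plates and classes and so are not independent. Closest to Ptgis were Plekho2 (r = 0.961), Echdc2 (0.94) and Stat5b (0.916). Closest to Ptgfr were Acp5 (0.971), 6030408B16Rik (0.969) and Adcyap1r1 (0.968), all highest in adventitial fibroblast-like cells. Closest to Ptgir were BC028528 (0.92), Acy3 (0.902) and Sipa1l2 (0.859), all highest in pericyte-like cells, and closest to Ptgs1 were P4ha3 (0.91), the overlapping Gm43621 (0.875) and Mettl24 (0.862). For the others the first was 2810433D01Rik for Ptgs2 (0.885), Tln1 for Tbxa2r (0.876), Fam222b for Ptger2 (0.883), Zfp423 for Ptger3 (0.817) and Gm13883 for Ptger4 (0.852). Among the members themselves the highest r was 0.696, between Ptgs1 and Ptger4, and the lowest -0.7, between Ptgs1 and Tbxa2r.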

How the data were processed

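Cells were sorted into plates and sequenced by Smart-Seq2, a full-length method without molecular identifiers, per the labels' protocols, and each deposited sample is 1 cell. The authors deposited raw read counts, whole numbers for each gene in each cell. Bowtie, Bowtie2, Subread, featureCounts and bcl2fastq, with builds GRCm38 and mm10, are named in the submitters' processing notes, without their roles or the handling of strand and multi-mapping reads. Symbols and coordinates came from GENCODE M21 for 46005 of 46517 genes, and the rest held 0.184% of counts. No cell was removed by a filter of 1000 genes, 20000 counts and 20% mitochondrial counts, and no doublet caller was run.

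Genes were split at random into 2 parts, with all pathway genes in the part not used for the clustering they are read in (1000 variable genes, 30 principal components, 15 neighbours, Leiden resolution 1, seed 1; igraph 0.11.9, leidenalg 0.10.2). Other genes of that part could still vary with the members. Clusters were named from marker lists, by a scoring rule set after the clusters were seen: at least 3 markers each detected in 25% of cells, a margin of 0.25 over the next class, and no lead of another class among the 10 leading genes. Of 1077 cells named in both clusterings, 96.7% were named alike. Each mouse counts as 1 replicate. Class-by-mouse sums of counts were tested with edgeR 4.0.16 (R 4.3.3; TMM, filterByExpr, glmQLFit and glmQLFTest, two-sided, mouse as block because classes of 1 mouse share the animal), adjusted by Benjamini-Hochberg over 16284 genes. The SE of a log2 fold change was its absolute value over the root of F. The code was tested on simulated data. Alternatives included DESeq2 1.42.0 and limma 3.58.1. Levels are CPM without TMM, and shares have exact binomial intervals. Named genes were the members, pathway genes called in a comparison, and the 3 genes most like each member. Members, lists and markers were chosen with earlier results of these data known.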

Additional observations from a re-analysis of the deposited data

Results flagged for a closer look

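In 4 comparisons female mouse 1 moved one way and both male mice the opposite way, and the difference between the mice was not tested. Ptger4 had 2.13 CPM in airway SMC-like cells, against 4.26 CPM in vascular SMC-like cells of female mouse 1, while the male mice had 18.8 and 30.8 CPM, against 4.17 and 6.08 CPM. Tbxa2r had 142.6 CPM in alveolar myofibroblast-like cells, against 66.85 CPM in alveolar fibroblast-like cells of female mouse 1, while the male mice had 0.921 and 7.85 CPM, against 10.4 and 34.3 CPM. Ptger3 had 0.877 CPM in airway SMC-like and 0.219 CPM in pericyte-like cells, against 0.0675 CPM in vascular SMC-like cells of female mouse 1, while the male mice had 1.12 and 0.434 CPM in airway SMC-like and 0.133 and 0 CPM in pericyte-like cells, against 7.80 and 4.97 CPM in vascular SMC-like cells. The Ptger3 values of female mouse 1 were 7, 4 and 1 counts.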

How the results depend on the processing

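For members called in a comparison, no fold change turned in any alternative fit, and of their calls 150 were kept and 35 lost. On the 2 plates of male mouse 1 taken apart, all 9 called differences between 2 classes had the same direction, while 11 of the other 45 turned. Among these was Ptger2 between pericyte-like and vascular SMC-like cells, with 126.6 against 20.5 CPM on one plate and 0.675 against 28.8 CPM on the other. The cells of both plates were in the fit that made the calls, so the shared direction of the called differences gives no independent support. Of the levels by plate, 45 differed from the value of the mouse by more than the SD over mice. Ptgis kept its call between pericyte-like and vascular SMC-like cells in all 12 alternatives. With each mouse left out in turn, the count ran from 0 to 1 for airway SMC-like against vascular SMC-like (2 in the main test), 0 to 2 for alveolar fibroblast-like and for alveolar myofibroblast-like against vascular SMC-like, 0 to 1 for alveolar myofibroblast-like against alveolar fibroblast-like, and 3 to 5 for any difference among the classes. DESeq2 called 2 members in pericyte-like, 5 in alveolar fibroblast-like and 7 in alveolar myofibroblast-like against vascular SMC-like cells, and 2 in adventitial against alveolar fibroblast-like cells. With only the 2 classes compared in the fit, the count was 1 for airway SMC-like and 6 for alveolar fibroblast-like against vascular SMC-like, and 1 for alveolar myofibroblast-like against alveolar fibroblast-like. Without the replicate block of the mouse, the pairing of classes within an animal, 2 members were called in pericyte-like against vascular SMC-like and 1 in alveolar myofibroblast-like against alveolar fibroblast-like cells, and the block changed no other count of members by over 1.5 times. At Leiden resolution 2 the count was 1 in alveolar myofibroblast-like against vascular SMC-like and 0 against alveolar fibroblast-like cells, and the airway comparison could not be made. A single clustering without the pathway genes gave 4 in alveolar myofibroblast-like against vascular SMC-like cells. The number of all genes called stayed within 1.5 times that of the main test in this comparison, and in those just named at Leiden resolution 2. The stricter cell filter gave 1 in adventitial against alveolar fibroblast-like cells and left too few pericyte-like cells to compare. Under that filter Ptgis was not called for any difference among the remaining classes (edgeR adjusted p = 0.14). The cause of these changes was not tested.

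Over all genes, DESeq2 called 6.29%, 11.1%, 10.9% and 9.87% in airway SMC-like, pericyte-like, alveolar fibroblast-like and alveolar myofibroblast-like against vascular SMC-like cells (edgeR 1.85%, 3.15%, 5.9% and 3.76%), 7.81% between the alveolar classes (2.09%), 2.83% between the fibroblast classes (0.295%) and 23.9% for any difference (12.3%). Without a mouse, edgeR called 0.458% to 0.794%, 0.464% to 1.39%, 2.14% to 2.85%, 0.928% to 1.52%, 0.561% to 0.87%, 0.0362% to 0.117% and 4.10% to 4.98% in that order. With each cell weighted equally in limma, the shares were 3.18%, 6.14%, 4.87%, 3.11% and 0.84% for airway SMC-like, pericyte-like and alveolar myofibroblast-like against vascular SMC-like cells and for the alveolar and fibroblast pairs. With 2 classes in the fit they were 1.31%, 1.98%, 12.4% and 0.108% (airway, pericyte, alveolar fibroblast, fibroblast pair), without the replicate block 1.23% and 1.84% (airway, pericyte), and with a single clustering 0.166% (fibroblast pair). In the other 47 alternative fits of a comparison, among them all at Leiden resolution 2 and with the stricter cell filter, the number of genes called stayed within 1.5 times that of the main test. Depth limits shares of cells: the median share over members and classes was 24.3% as deposited and 13.97% thinned.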
